A study of Drosophila melanogaster with 3 samples.

Results

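Of the 30000 candidate peaks of pdm3-GFP in the list pooled over all replicates, 682 had their summit inside a coding exon or a 3' UTR and more than 500 bp from every start site of a protein-coding gene. They are called exon candidates here. In 265 the summit lay in coding sequence, 10 of which were also 3' UTR in another transcript, and in 417 it lay in a 3' UTR alone. The rule for members used summit position and gene annotation alone, and not signal, rank or reproducibility. It was, however, chosen with earlier results of these data known. The other candidates comprised 5373 near a start site, 14575 in introns, 9170 between genes and 200 in 5' UTRs.

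The chromatin came from whole white prepupae of Drosophila melanogaster, of pooled sex and unknown age, from a transgenic line that stably expresses pdm3 with GFP at its C-terminus. An antibody against GFP was used on chromatin sheared by sonication to 200 to 800 bp, per the labels' descriptions, while the antibody field of the labels names pdm3. There were 3 biological replicates of this line in 1 group, and no second genotype, stage or treatment was set against them. What drives the transgene is not given in the labels, and whole animals mix all tissues, so a site bound in few cells and a site bound weakly in many cannot be told apart.

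pdm3 belongs to the POU-domain transcription factors and is known from work on olfactory neuron identity. POU proteins hold a pair of DNA-binding parts, the POU-specific domain and a homeodomain, which together recognise an octamer with the sequence ATGCAAAT. Transcription factor sites are commonly sought in promoters and in introns or intergenic enhancers, while coding exons and 3' UTRs are mostly read as parts of the messenger RNA: the first is translated, and the second carries signals for its stability, localisation and end formation.

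Each deposited list ranks its peaks by the authors' own signal value per peak, whose normalization is not stated, so ranks are given as a percentage of the 30000 rows, where 1% means among the 300 highest. The optimal list is the authors' selection of reproducible peaks. It equalled the 8164 highest pooled candidates, or 27.2% of them, with signal values from 89.85 upwards. The lists hold no read counts, and library depth is therefore unknown. Replicate 2 stood apart in coding exons. Its own list placed 688 summits in coding exons away from start sites by the same rule, against 318 in replicate 1 and 354 in replicate 3, and the median GC content around all its summits was 38.6%, against 34.7% in each of the other two. Of the 688, 597 lay in the lower 50% of its ranks. In 3' UTRs replicate 2 had the fewest summits by this rule, 456, against 536 in replicate 1 and 615 in replicate 3. No row was identical between any pair of replicate lists.

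Sequences of 30 bases from 12 exon candidates are shown because, among the optimal peaks named here, they hold a word searched for within 50 bp of the summit or are the highest without one. The peak in otp and a few others named here are not shown. They are written 5′ to 3′ on the strand of the gene, from the RefSeq copy of dm6. In the first 7, capitals mark the word, on either strand; in the last 5, which held none of the 9 words, the capital is the summit base.
CG43389 3' UTR, chr3L:3248926-3248955, plus strand: aattgagttcctTTGCATagttatgatttt
Cals 3' UTR, chr4:1113364-1113393, minus strand: aacgatgccttgTAATTAgaaattaataga
CG14440 3' UTR, chrX:6696654-6696683, minus strand: taaatattaaaaTAATTActgagcatcgcg
CG13405 3' UTR, chr3L:73953-73982, minus strand: atttcgattaaaAGATAAtttatgtggact
su(w[a]) coding exon, chrX:1041637-1041666, plus strand: tatagccctattTTGCATaatctaaacaga
Snx27 coding exon, chrX:5737155-5737184, minus strand: gccccccttcagCACGTGagcgccgtcctt
l(3)mbn coding exon, chr3L:6124771-6124800, minus strand: gataagaggaaaTTATCTccttaagcaaga
Ance-3 3' UTR, chr2L:13955901-13955930, plus strand: aagatgattcatgaAgtagattcagacacc
CG7872 3' UTR, chrX:15579782-15579811, plus strand: aaaaaagcacgccaCattcgcgtgtttcct
CG33307 3' UTR, chr2L:13839905-13839934, minus strand: caagtttgcaagacgAtacagtgtttaaaa
stas 3' UTR, chrX:17625045-17625074, minus strand: gtaataaaataacgtAtacgcaatgttaac
NetB 3' UTR, chrX:14689274-14689303, minus strand: cgctaaatttacactCtcttttcaacgaac
The CG43389 and su(w[a]) windows hold the half-site of the octamer, ATGCAA, as its reverse complement TTGCAT. Cals and CG14440 hold TAATTA, the core that homeodomains recognise, CG13405 and l(3)mbn hold the GATA word AGATAA, and Snx27 holds the E-box CACGTG. Each label names the exon of the summit and not of every base shown. In l(3)mbn that exon is 63 bp long and has an edge 20 bp from the summit. The word there starts at −44 bp from the summit and is not wholly inside that exon.

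The first question was how strong the exon candidates were. They were weak as a class, and those in coding exons weaker than those in 3' UTRs. Their signal values had a median of 31.6 and ran from 22.2 to 995, while the other candidates had a median of 46.4 and reached 4114. The median rank was 70.5% for the exon candidates and 49.5% for the others, with 78.0% for coding exons and 65.4% for 3' UTRs. In the lower 50% of ranks lay 489 exon candidates, 71.7% (95% Wilson interval 68.2 to 75%), against 49.5% of the other candidates. That share was 84.2% of the coding exon candidates and 63.8% of the 3' UTR candidates. Intervals cover counting error over peaks, which share the same libraries, and not the spread between animals.

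Exonic summits became more frequent towards the bottom of the pooled ranking. They made up 0.7% of the highest decile of the pooled candidates, 21 peaks, and 4.5% of the lowest decile, 135 peaks. Coding exon summits made up 0.2% of the highest decile and 2.47% of the lowest, and 3' UTR summits 0.5% and 2.03%. The 3' UTR share was already at 1.67% in the 5th decile, where the coding share was 0.4%.

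The same measure in each replicate's own list had the same direction. The rule for members did not use these lists, but the pooled list comes from the same 3 replicates. They are therefore no independent check of its ranking. Among the 8164 highest peaks of a replicate's list, 80, 77 and 76 summits met the rule in replicates 1, 2 and 3, or 0.951% ± 0.0255 (SD, n = 3). Among the remaining peaks of the list the share was 4.17% ± 0.675 (SD, n = 3). The share in the top was lower in 3 of 3 replicates, with a difference of −3.22 ± 0.692 percentage points (top minus rest, SD of the paired differences, n = 3; two-sided exact sign permutation over replicates, p = 0.25, the smallest that 3 replicates allow). The top parts resembled each other closely, with 17, 16 and 10 coding exon summits and 63, 61 and 66 3' UTR summits. The replicates parted lower down: replicate 2 had 5.5% coding exon summits in its lowest decile, against 3.27% in replicate 1 and 2.97% in replicate 3.

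**Figure D1:**
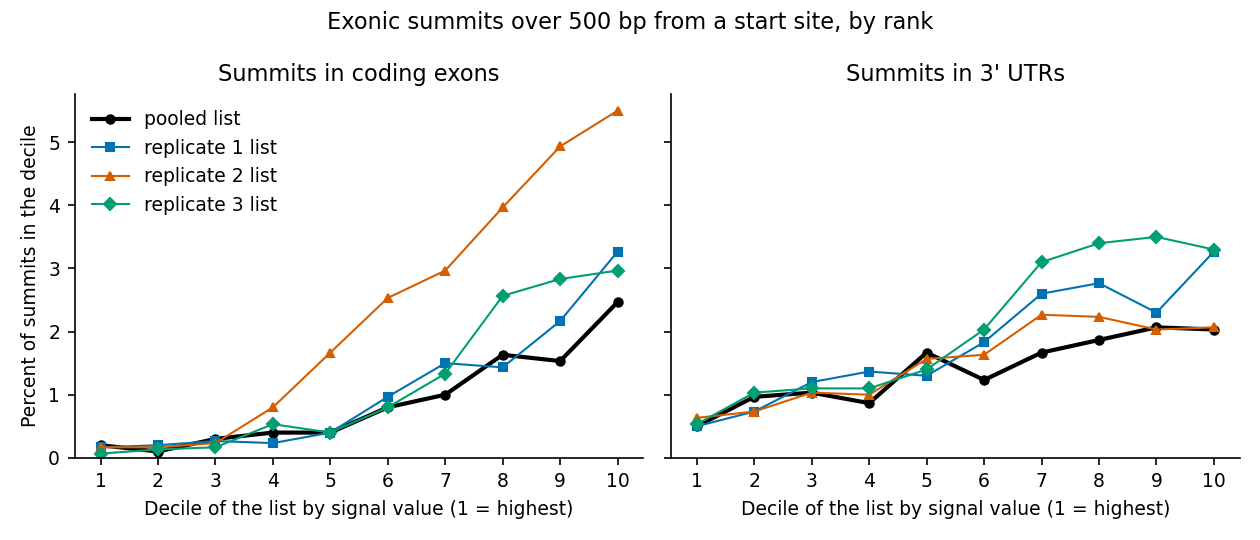
Percent of summits that lay in coding exons (left) and in 3' UTRs (right), over 500 bp from a start site, for each decile of a list ordered by signal value, with 1 the highest. Each line is 1 list of 30000 peaks, so a point stands for 3000 peaks. Coding exon summits in the pooled list stayed at or under 0.4% in the 5 highest deciles and reached 2.47% in the lowest, and in coding exons replicate 2 lay above the other lists from the 4th decile on.

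Few exon candidates were in the optimal list. It held 83 of the 682, 12.2% (95% Wilson interval 9.93 to 14.8%), against 27.6% of the other candidates and 27.2% of all candidates. Coding exons had 18 of 265 in the list, 6.79% (4.34 to 10.5%), and 3' UTRs had 65 of 417, 15.6% (12.4 to 19.4%). Both shares were under those of intergenic candidates, 20.7%, introns, 26.4%, and start sites, 42.6%. Since the optimal list followed the signal ranking, this is the ranking seen at another threshold and not a further measure. Among the 225 candidates that lay in coding exons or 3' UTRs within 500 bp of a start site, and so outside the set, 56 or 24.9% were optimal.

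Exon candidates were also less often found again in the single replicates. Of them, 56.9%, 51.6% and 64.8% were covered over at least 50% of their length by peaks of replicates 1, 2 and 3, against 74.3%, 68.6% and 75.9% of the other candidates. Over all candidates these shares were 73.9%, 68.2% and 75.6%. The exon candidates averaged 57.8% ± 6.64 and the other candidates 72.9% ± 3.82 (SD, n = 3), a difference of −15.2 ± 3.52 percentage points, lower in 3 of 3 replicates (two-sided exact sign permutation, p = 0.25, the smallest possible). The gap between the groups was thus larger than its spread between replicates, in a design that cannot reach a smaller p. The groups were not matched by rank, and the median rank was 70.5% for exon candidates and 49.5% for the others. Whether coverage differed beyond rank was not tested, here or in the comparisons of coverage that follow.

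All 3 replicates covered 174 exon candidates, 25.5% (22.4 to 28.9%), against 46.4% of the other candidates and 45.9% of all. At the other end, 61 exon candidates (8.94%) were covered by no replicate, against 3.65% of the other candidates, while 234 were covered by 1 replicate and 213 by 2. Within the exons, coding candidates were covered by all 3 in 17.0% and 3' UTR candidates in 30.9%. Per replicate the coding exon candidates were covered in 43.4%, 49.4% and 54.0%, against 65.5%, 53.0% and 71.7% of the 3' UTR candidates. The coding share was lower in 3 of 3 replicates, with a difference of −14.5 ± 9.68 percentage points (SD, n = 3; exact sign permutation, p = 0.25), but by far least in replicate 2. There the values were 49.4% and 53.0%, in the list that held the most coding exon summits.

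**Figure D2:**
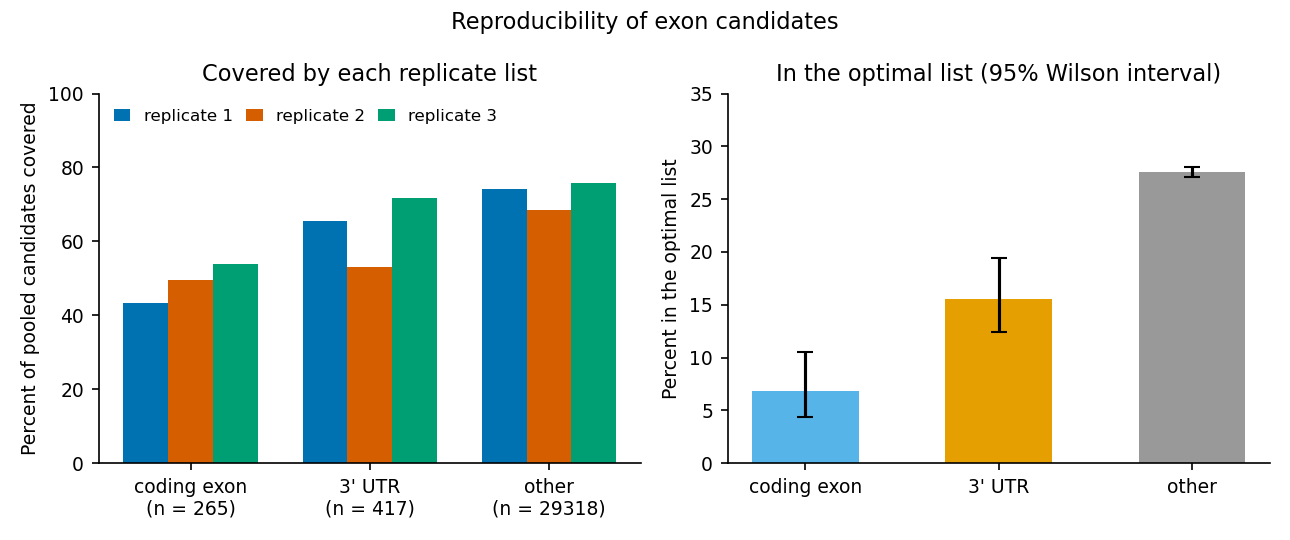
Left, percent of pooled candidates covered over at least 50% of their length by each replicate's list, for coding exon, 3' UTR and other candidates. Right, percent of the same classes in the optimal list, with 95% Wilson intervals as error bars. The 3 coding exon bars on the left lie between 43.4% and 54.0%, under all 3 bars of the other candidates.

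For the exon peaks that did reach the optimal list, itself selected for reproducibility in these libraries, coverage against the whole list depended on the measure. All 3 whole replicate lists covered 72 of the 83, 86.7% (77.8 to 92.4%), and 91.2% of all optimal peaks, a share inside that interval. By class they covered 17 of the 18 coding exon peaks, 94.4%, and 84.6% of the 3' UTR peaks. The 8164 highest peaks of all 3 replicates covered 39 of the 83, 47.0%, against 62.3% of all optimal peaks. Here both classes were lower, with 44.4% of coding exon and 47.7% of 3' UTR peaks. The median pooled rank of the 83 was 16.5%, against 13.6% for all optimal peaks. Where a replicate covered such a peak, the nearest replicate summit lay a median of 17, 25 and 9 bp from the pooled summit in replicates 1, 2 and 3, and over all optimal peaks 17, 22 and 14 bp. Over all exon candidates, the 8164 highest peaks of all 3 replicates covered 41, 6.01%, against 17.4% of all candidates.

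Among the 3' UTR candidates, a small number ranked among the highest 2% of every list. CG43389 led (3L 3248649 to 3249137, signal value 995) and ranked at 0.66%, 0.963% and 0.62% of the lists of replicates 1, 2 and 3. Ance-3, a member of the angiotensin-converting enzyme family, followed (2L 13955745 to 13956107, 946), with ranks of 0.687%, 0.937% and 0.887%. Cals, which encodes calsyntenin, a cadherin-related membrane protein, had a peak of 841 on chromosome 4 (1113159 to 1113496) with ranks of 1.01%, 1.21% and 1.01%. All 3 peaks were thus within the highest 1.21% of every replicate list. The summit in CG43389 was 887 bp from the nearest protein-coding start site but 438 bp from that of a long noncoding RNA, lncRNA:CR43626. The one in Ance-3 was nearest to the start site of NimA rather than its own.

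The next 3' UTR peaks kept their ranks nearly as well. CG7872 (X 15579648 to 15579943) had a signal value of 764 and ranked at 1.15%, 1.95% and 1.29%. CG33307 (2L 13839737 to 13840105, 565), a gene that lies within an intron of CenG1A, ranked at 2.42%, 2.67% and 2.57%, although the peaks of replicates 1 and 3 covered only 46.9% and 36.9% of the pooled peak. Stasimon, stas (X 17624912 to 17625233, 524), which encodes a membrane protein of the TMEM41B family, ranked at 2.88%, 2.88% and 2.95%. These ranks differed little between replicates, and CG33307 is missing from the count of coverage by all 3 because of that width threshold. NetB, a netrin that guides axons, had its peak at X 14689137 to 14689418 with 476 and ranks of 2.88%, 4.51% and 3.59%. In replicate 2 the overlapping peak covered only 44.7% of the pooled peak. The pooled summit lay 1974 bp past the stop codon in a 3' UTR of 5224 bases.

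Further down, some peaks, such as those in Lsd-2 and dia, diverged more between replicates, and others did not. Lsd-2, a perilipin of lipid droplets (X 15069356 to 15069661, 426), ranked at 5.09%, 2.04% and 7.12%. The tensin by, an adaptor of integrin adhesions (3R 9528514 to 9528748, 404), ranked at 4.92%, 4.93% and 3.85%. For Tctp, a conserved growth-linked protein (3R 11211725 to 11211943, 371), the ranks were 5.04%, 5.32% and 5.67%, with only 44.75% covered by replicate 2. Of these, Lsd-2 had the widest spread, and replicate 2 placed it highest. CG14440 (344), REG, a proteasome activator (284), qvr, a modulator of potassium channels (264), and CG13405 (236) all ranked between 5.07% and 11.6% in every replicate. The formin dia (288) ranked at 5.16%, 19.7% and 6.75%, with replicate 2 the low one. Its summit was 6 bp from the exon edge, with 34.9% of the peak in exon sequence, and the position was intronic in another transcript.

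Among coding exons, 1 peak was well ahead of the rest. It lay in otp, the homeobox gene orthopedia that acts in the development of the hindgut and of neurons, at 2R 20884445 to 20884735, and had 618 as its signal value. It ranked at 2.71%, 1.18% and 2.26% of the lists of replicates 1, 2 and 3, and its summit was in coding sequence 168 bp from the exon edge, 4663 bp from the nearest start site, which is that of Cib2. The whole peak was exon, and its sequence, like that of other peaks on this arm, is not shown. The GC content within 50 bp of the summit was 61.4%, well above that of the strongest 3' UTR peaks, 28.7% in CG43389 and 27.7% in both Ance-3 and Cals.

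The following 5 coding peaks had signal values from 231 to 294. CG5895 (3L 16037049 to 16037267, 294) ranked at 7.65%, 5.68% and 9.6%. Klarsicht, klar, which links nuclei to the cytoskeleton (3L 506169 to 506337, 287), ranked at 10.2%, 10.3% and 5.7%. CG10357 (3L 3616457 to 3616608, 280) ranked at 9.89%, 6.27% and 7.86%. The order of the replicates differed between these 3. Pde1c, a cyclic nucleotide phosphodiesterase (2L 11816478 to 11816668, 238), ranked at 9.41%, 9.25% and 10.6%, and Ubr1, a ubiquitin ligase of the N-degron pathway (X 16967545 to 16967724, 231), at 15.1%, 6.72% and 10.1%. All replicates covered all 5 over at least 58.6% of their length.

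The remaining 12 optimal coding peaks had signal values between 90.5 and 160.5. CG33181 (160.5) lay under a stronger neighbouring candidate and overlapped the peak of replicate 2 over only 40.2%. Socs36E, a suppressor of JAK/STAT signalling (97.4), also lay under a stronger candidate, so its replicate ranks of 5.59 to 7.06% are those of a neighbouring peak, while its own pooled rank was 7521. HisRS, the histidyl-tRNA synthetase (126), was also within an intron of Bx. CG33181, HisRS, sgg and su(w[a]) all had summits that were intronic in another transcript of the same gene. These 5 are therefore uncertain as sites of their own in a coding exon. CG3919, Dlic, bip1, CG11668 and l(3)mbn had only 39.8 to 48.3% of the peak in exon sequence. Their summits lay 16 to 58 bp from an exon edge with intron beyond, so they are uncertain as coding exon sites too. The 12 also included CG3919 (125), the dynein light intermediate chain Dlic (114), the kinase sgg, known as GSK3 in mammals (111), bip1 (108), su(w[a]), a regulator of splicing (104), CG11668 (102), the sorting nexin Snx27 (100.6), l(3)mbn (92.9) and toc (90.5). Their ranks spread widely: Snx27 lay at 21.3%, 54.7% and 32.5%, and toc at 46.7%, 17.3% and 42.2%, in replicates 1, 2 and 3.

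**Figure D3:**
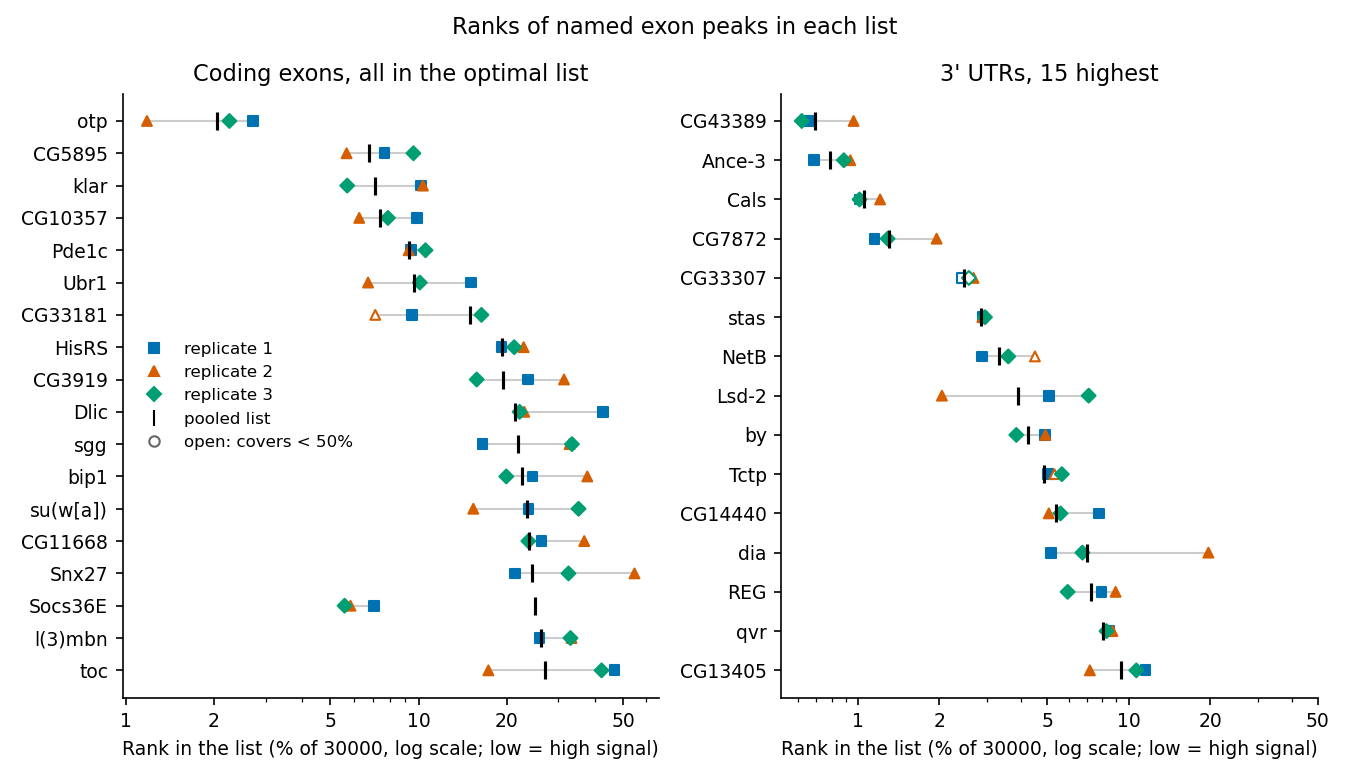
Rank of each named peak in the pooled list and the 3 replicate lists, as percent of 30000 on a log scale, for the 18 coding exon peaks of the optimal list (left) and the 15 highest 3' UTR peaks (right). Open symbols are replicate peaks that overlap but cover under 50% of the pooled peak. The 4 highest 3' UTR peaks and otp stay under 3% in every list, and the ranks of Socs36E come from a stronger neighbouring peak.

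The position of the summits within the exons differed between the classes. Coding exon summits lay near exon edges: their median distance to the nearest edge was 95 bp, against 216 bp for all 378034 positions of coding exon, taken every 50 bp, that met the same rule. Within 100 bp of an edge were 134 of 265, 50.6%, against 30.9% of those positions. For 132 of the 134 the sequence beyond that edge was intron. The exons themselves were shorter, with a median of 630 bp against 1046 bp. Only 74 coding candidates, 27.9%, lay wholly within exon sequence, so most of these peaks also covered sequence outside exons. In the 18 optimal ones the median distance to an edge was 87.5 bp.

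In 3' UTRs this was weaker. The median distance to an exon edge was 379 bp, against 446 bp for all eligible 3' UTR positions, and 20.1% were within 100 bp, against 13.8%. In 275, 65.9%, the whole peak was in exon. The 3' UTR at the summit had a median length of 1243 bases, and 249 of 417 were in a 3' UTR of over 1000 bases, where 15% of all genes have one that long. A long 3' UTR offers more positions, and counted by position there was little difference: the exon at the summit had a median length of 1959 bp, against 1978 bp at eligible 3' UTR positions. The median summit was 684 bp past the stop codon and the farthest 10531 bp. With each 3' UTR split into 3 equal stretches from the stop codon, 90, 139 and 188 summits fell in the first, middle and last. These counts have no eligible positions beside them, so no preference for a stretch can be read from them.

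**Figure D4:**
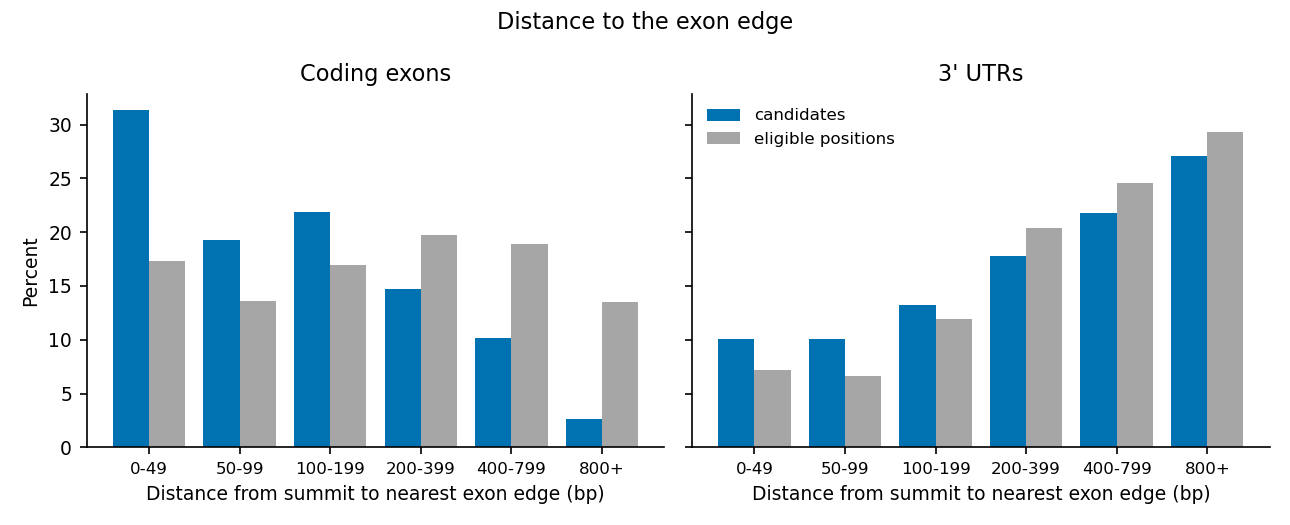
Distance from the summit to the nearest exon edge for coding exon candidates (left, n = 265) and 3' UTR candidates (right, n = 417), in percent, beside all eligible positions of the same kind. In coding exons 31.3% of the candidates lay under 50 bp from an edge, against 17.3% of eligible positions, and 2.64% lay at 800 bp or more, against 13.5%.

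Neighbouring features touched part of the set. In 105 exon candidates the summit was also in an intron, of a gene around it in 50 and of another transcript of the same gene in 60. Of these, 21 were optimal, 20% (13.5 to 28.6%), against 62 of the 577 never intronic, 10.7% (8.47 to 13.5%). In 25 candidates a noncoding start site was within 500 bp, and 2 lay in an annotated transposable element. A stronger candidate overlapped 75 of them, 11%, against 13.3% of all candidates. The nearest protein-coding start site belonged to the gene of the exon in 381 of 682, so for the others the gene named and the nearest start site differ.

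GC content followed the kind of exon. Windows of 50 bp to each side of coding exon summits had a median GC content of 54.5%, close to the 53.5% of eligible coding positions, and those around 3' UTR summits had 33.7%, close to the 34.7% of eligible 3' UTR positions. The other candidates had a median of 34.7%. Optimal coding exon peaks, with 51%, were richer in GC than all optimal peaks together, with 31.7%, whereas the optimal 3' UTR peaks had 31.7% as well.

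**Figure D5:**
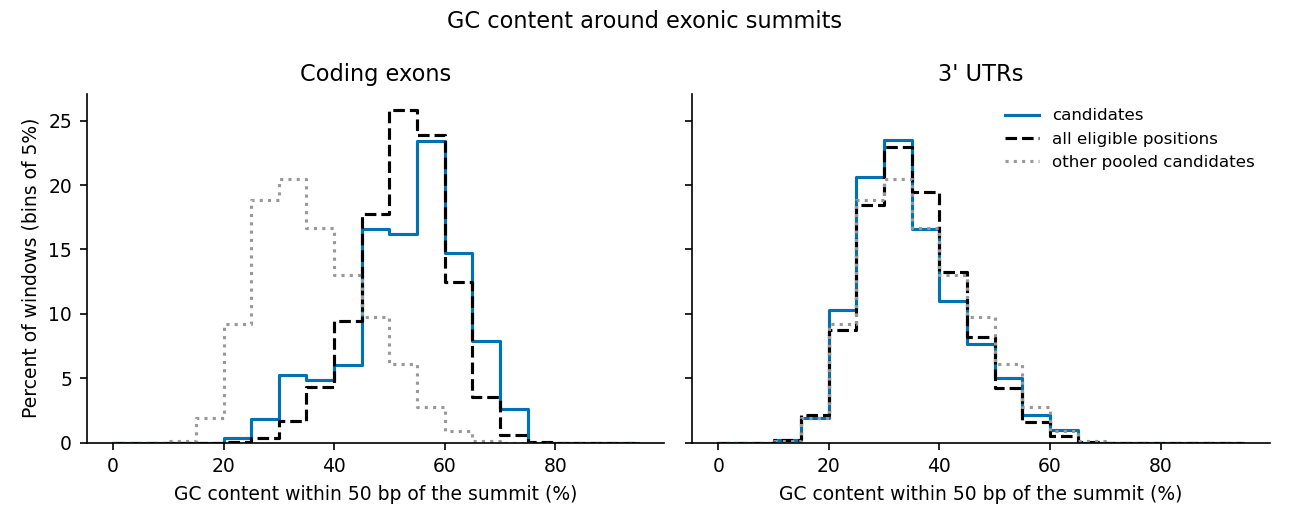
GC content of the windows of 50 bp to each side of coding exon summits (left) and 3' UTR summits (right), in bins of 5%, beside all eligible positions of the same kind and the other pooled candidates. The coding exon candidates lie with the coding positions, at a median of 54.5%, and apart from the other candidates at 34.7%; the 3' UTR candidates overlap all of them.

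The octamer was not frequent in these windows. ATGCAAAT, on either strand, was in 7 of 682 windows, 1.03%, against 1.79% of all candidates, and in 0 of the 83 optimal ones. It was in 0.377% of coding exon candidates, against 0.412% of eligible coding positions, and in 1.44% of 3' UTR candidates, against 1.58% of eligible 3' UTR positions. The half-site ATGCAA, which the octamer contains, was in 50 windows, 7.33%, against 10.7% of all candidates. It was in 3.77% of coding exon candidates, against 4.09% of eligible coding positions, and in 9.59% of 3' UTR candidates, against 10.3% of eligible 3' UTR positions. Within each kind of exon neither word was thus more frequent than in the eligible positions. Over both kinds together they were more frequent, 1.03% against 0.696% and 7.33% against 5.62%, where 417 of the 682 candidates but 121616 of the 499650 eligible positions were in 3' UTRs. The homeodomain core TAATTA was in 55 of the 417 3' UTR windows, 13.2%, against 9.33% of eligible 3' UTR positions, but in only 4 of the 65 optimal 3' UTR windows, 6.15%. In coding exons it was in 7 windows, 2.64%, against 1.04%. Of the coding exon candidates 31.3% lay under 50 bp from an exon edge, against 17.3% of eligible coding positions. More of their windows therefore reached outside the exon, and no word share in coding exons was adjusted for this.

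Among the other words searched on both strands, the GATA word AGATAA was in 5.72% of the exon windows, against 7.2% of all candidates. It was in 2.26% of coding exon and 7.91% of 3' UTR candidates, against 2.96% and 6.67% of eligible positions of the same kind. The CA repeat CACACACA was in 2.05% of exon windows, against 1.8% of all candidates. All of these were in 3' UTRs, in 3.36% of candidates, against 3.04% of eligible 3' UTR positions. The repeat GAGAGAG was in 1.32% of exon windows, against 1.56% of all candidates. By kind it was in 1.13% of coding exon and 1.44% of 3' UTR candidates, against 0.489% and 1.3% of eligible positions. The E-box CACGTG and the AP-1 word TGACTCA were each in 5 windows, 0.733%, against 0.853% and 0.867% of all candidates. All 5 E-boxes were in coding exons, in 1.89% of candidates, against 1.54% of eligible coding positions. The AP-1 word was in 0.755% of coding exon and 0.719% of 3' UTR candidates, against 0.544% and 0.499% of eligible positions. The DREF element TATCGATA, which occurs in many fly promoters, was in 0 of 682 windows. It was in 0.507% of all candidates but in only 0.126% of eligible exon positions. A match describes these letters alone and is not a site.

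The 682 peaks lay in 577 protein-coding genes, 4.14% of the 13945 annotated, and 481 genes held 1. These genes were long, with a median of 9016 bp, against 2166 bp for all genes. corto, whose product interacts with Polycomb and trithorax group proteins, held the most, 6 peaks in a 3' UTR of 6594 bases, of which 0 were optimal. The 6 had signal values from 22.9 to 87.5, the highest just short of the optimal list. The 56.4 peak overlapped that of 87.5, and the one of 22.9 was covered by no replicate. Lsd-2 held 4 peaks side by side and Ppa, an F-box protein, 4 as well, each with 1 in the optimal list. In both, weaker peaks also overlapped stronger ones: the 88.3 peak in Lsd-2 overlapped that of 426, and in Ppa those of 46.6 and 36.9 each overlapped a stronger one.

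CG12535 held 3 peaks, of which 2 were optimal, with signal values of 156 and 128. The 156 peak (X 3389798 to 3390217) was also in a 3' UTR of Myc, the growth regulator, which the same position overlaps, so the gene is uncertain. It ranked at 17.9%, 17.4% and 17.2%, nearly level in all 3 replicates. CG1888 and CG31259, from the same tie, held 3 peaks each and 0 in the optimal list.

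Gene lists for this stage held 0 to 2 optimal exon peaks each. Over all 13945 protein-coding genes, 577 had an exon candidate and 82 had an optimal one, so small counts per list are no result about these genes. Ecdysone, the steroid that sets off metamorphosis, acts through nuclear receptors and early genes, of which 7 of 22 had an exon candidate. The highest was in the 3' UTR of Hr3, the nuclear receptor of the prepupal relay (2R 10204810 to 10205229, 102), ranked at 20.5%, 53.8% and 24.7%, and it was the only optimal one. Hr39 (35.6), Hr38 (32.4) and ImpE2 (27.7) followed, and ImpE2 was covered by no replicate. Of 82 transcription and chromatin regulators 16 had an exon candidate, with Hr3 again the optimal one, and next the clock repressor cwo (44.4), Su(z)2 of the Polycomb group (41.4) and the homeobox gene hth (37.7).

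Adhesion and guidance genes had 10 of 50, led by NetB and then by rst, an immunoglobulin adhesion protein of the eye (86.8), with ranks of 31.1%, 42.0% and 31.1%. RNA-binding and translation control genes had 7 of 35 and 0 optimal peaks, the highest in how at 42.2. Growth and signalling genes had 6 of 51, of which sgg and Socs36E were optimal. Ion channel and synapse genes had 3 of 40. In para, the voltage-gated sodium channel, a peak with a signal value of 109.6 (X 16458556 to 16458975) was 5022 bp past the stop codon. It ranked at 22.3% in replicate 1 and 27.7% in replicate 3, and no peak of replicate 2 overlapped it.

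Muscle and cytoskeleton genes had 3 of 37, Act5C (56.8), chic (55) and bt (33.9), and larval cuticle, glue and serum proteins 1 of 28, Lsp1gamma (27.4). Ribosomal protein genes had 0 of 80, and heat shock and chaperone genes 0 of 22. The share over all genes was 4.14%, and the lists differ in gene and 3' UTR length, which was not adjusted for.

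The X chromosome held a larger share of the strong exon peaks, a pattern noticed in these values. Of its 134 exon candidates 30 were optimal, 22.4% (16.2 to 30.2%), against 53 of 548 on the other arms, 9.67% (7.47 to 12.4%). Over all candidates the shares were 29.6% on X and 26.7% on the other arms. Exon candidates on X were covered in 68.7%, 59.0% and 76.1% by replicates 1, 2 and 3, against 54.0%, 49.8% and 62.0% on the other arms. X was higher in 3 of 3 replicates, by 12.6 ± 3.03 percentage points (SD, n = 3; two-sided exact sign permutation, p = 0.25, the smallest possible). Over all candidates the difference between X and the other arms was 1.93 ± 4.11 points (SD, n = 3; exact sign permutation, p = 0.75), with replicate 2 lower on X.

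By arm, 126 exon candidates lay on 2L with 10 optimal, 95 on 2R with 11, 136 on 3L with 17 and 178 on 3R with 14. The small chromosome 4 had 13, which is 6.91% of its 188 candidates, against 2.0 to 2.55% on the other arms. These 13 were 1.91% of all exon candidates, and the chromosome held 1.42% of eligible exon positions. Only that in Cals was optimal there, and replicate 2 covered 15.4% of the 13, against 61.5% in replicate 1 and 69.2% in replicate 3. Replicate 2 was also the lowest over all 188 candidates, with 38.3%, against 71.8% in replicate 1 and 71.3% in replicate 3.

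At the boundary of 500 bp from a start site, the nearest exonic summits inside were in CG3919 at 501 bp (signal value 125), siz at 517 bp with 24.4 and capu at 519 bp with 71.9. The nearest outside were amn at 500 bp with 28.8, PGRP-LA at 497 bp with 43.0 and CG13692 at 497 bp with 29.3. Of these 6, CG3919 alone was optimal.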

How the data were processed

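ChIP-seq of pdm3-GFP white prepupae gave, per replicate and pooled, deposited narrowPeak lists on dm6 with a score (the signal value), a −log10 q-value and a summit per peak. Per the labels' readme, a replicate list derives from the alignments of that replicate with 1 control file, and the optimal list from the replicate and pooled lists. The sources used here do not give the aligner, peak caller or threshold; the −log10 q-value was not used to select peaks, and lists on dm3 were not used. The lists hold no reads, so depth is unknown.

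Summits were classed with Ensembl release 115 (19252 start sites, 6 arms). The RefSeq annotation gave the same 682 members, and 0 peaks ran past an arm's end. A replicate counted as covering a peak from 50% of its length, and a rank is that of the highest overlapping replicate peak. Shares have 95% Wilson intervals, which cover counting error only. Differences over the 3 replicates were tested by exact sign permutation, and no test was made over peaks. Eligible positions, 499650 in all, were taken every 50 bp. The classing, coverage and word search steps were first tested on simulated data, and the permutation step was not.

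The members, the 10 gene lists (430 of 445 symbols matched) and the 9 words were chosen with earlier results of these data known. Named were all coding exon peaks in the optimal list, the 15 highest in 3' UTRs and 6 genes with most peaks. Of the 15 genes tied at 3 peaks, only CG12535, CG1888 and CG31259 were named for this. Also named were the 3 nearest on each side of 500 bp, up to 4 per list and the highest per arm. The tools were scipy 1.17.1, pandas 2.3.3, Biopython 1.88, matplotlib 3.10.9 and numpy 2.4.6 in Python 3.11.15.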

Additional observations from a re-analysis of the deposited data

How the results depend on the processing

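No paired analysis was possible because the series has 1 group and no second group to pair its replicates with; classes of peaks were compared within each replicate. Start sites at 250 or 1000 bp, start sites of all genes, peak midpoints, the RefSeq annotation, exon sequence in every transcript and, added after seeing the data, leaving out candidates under a stronger one moved no share beyond its interval, with 569 to 787 members. Without members on X, also added then, 9.67% were optimal, 22.3% were covered by all 3 replicates and 76.1% lay in the lower 50% of ranks. Coverage by all 3 was 33.0% for an overlap of 1 bp (56% of all candidates), 14.5% for 80% (26.6%), 19.5% for a replicate summit within 100 bp (36.5%) and 6.01% for the top of each list (17.4%). With 1 replicate left out it was 32.6 to 41.4%, the highest without replicate 2 (59.8% of all candidates). Leaving out a replicate, which then also asked for coverage by the top of both other lists, left 5.87 to 8.21% optimal (18.6 to 20.6% of all candidates). The 4000 highest pooled candidates held 4.25% of the members (13.3% of all candidates), and 5.72% were optimal and in the top of all 3 lists (17.0%). The exonic share of the own lists was 0.758% in the top 4000 and 1.39% in the top 15000. ATGCAAAT was in 0.44% of windows of 25 bp and 2.64% of windows of 100 bp to each side (0.9% and 3.6% of all candidates), and ATGCAA in 3.67% and 15.7% (5.41% and 20.3%). In each setting with a value for all candidates, the exon candidates were the lower. Without replicate depth, weak peaks and poorly sampled ones cannot be told apart.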
